A study of Mus musculus with 94 samples.

Results

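The 10 imprinted genes below were examined in PV-ADSCs, mesenchymal stem cells obtained from perivascular adipose tissue: *Meg3*, *Rian*, *Dlk1*, *Peg3*, *Ndn*, *Igf2*, *H19*, *Cdkn1c*, *Plagl1* and *Grb10*. The genes were taken by name from a list, and 9 of the 10 had a row among the 16069 genes of the expression table. *H19* was not analysed here. The cells came from periaortic fat, dissected along the thoracic aorta of mice aged 8 weeks whose strain the labels give as c57/bl, and no treatment or genetic change was given. Live single cells (Syto16+/DAPI-) were sorted as CD144-/CD45-/CD29+/Sca1+, that is without the endothelial cadherin CD144 and the leukocyte marker CD45 and with the mesenchymal markers CD29 and Sca1. Each cell was a library of its own, made with the SMARTseq v4 full-length kit, and 85 of the 94 cells described were in the table. No animal was named for any cell, so the cells counted as 1 sample. The shares below carry exact Clopper-Pearson 95% intervals, which cover counting error over cells only, and no comparison has a p-value.

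An imprinted gene is transcribed mainly from the chromosome of 1 parent, because DNA methylation laid down in the egg or sperm marks the chromosomes differently. Imprinted genes lie in domains in which a control region, often near the start of a long noncoding RNA, sets the state of several neighbours. *Meg3*, *Rian*, *H19* and *Cdkn1c* are known as maternally expressed genes, *Igf2*, *Dlk1*, *Peg3*, *Plagl1* and *Ndn* as paternally expressed genes, and *Grb10* as maternally expressed in most tissues outside the brain. Several of them restrain growth or act in the insulin-like growth factor pathway, and *Dlk1* is a classical preadipocyte gene. The parental origin of the reads was not measured.

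The sequences of 2 start regions are shown because *Meg3* was the member with reads in the most cells, and because the *Peg3* window holds a motif that few promoters hold. They are windows of RefSeq (GRCm38.p6), which gave a window from 250 bases before to 50 bases after a start site for 8 of the 10 genes. Capitals mark TATAAA in the *Meg3* stretch (chr12:109540876-109540995, plus strand, the 120 bases before the start site) and GGGGCCCC in the *Peg3* stretch (chr7:6730520-6730669, minus strand, the first 150 bases of its window).
Meg3: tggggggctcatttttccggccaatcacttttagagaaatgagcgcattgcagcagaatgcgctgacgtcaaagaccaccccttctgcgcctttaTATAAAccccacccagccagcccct
Peg3: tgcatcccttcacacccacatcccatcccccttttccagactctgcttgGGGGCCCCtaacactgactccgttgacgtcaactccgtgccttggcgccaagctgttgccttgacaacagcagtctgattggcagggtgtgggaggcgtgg
On either strand, TATAAA stood in 13.6% and GGGGCCCC, which reads the same on both strands, in 1.08% of all 32851 windows. TATAAA occurred in the window of this *Meg3* start 2 times with overlap, once on each strand, and in none of the other 12 windows of the members, and GGGGCCCC occurred only in the *Peg3* window. The number of CG dinucleotides had a median of 7 over all windows. It was 13 in this *Meg3* window and 1 in the window of the second annotated *Meg3* start. It was 13 for *Peg3*, 11 for *Ndn*, 9 for *Dlk1*, 26 for *Plagl1* and 0 for *Rian*, and *Grb10* had 45 and 9 at its 2 starts. The 4 starts of *Igf2* had 2, 14, 24 and 7. Methylation of these windows was not analysed here.

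Cells with a *Dcn* value of at least 1000 were called stromal. *Dcn*, which is not among the imprinted genes, encodes decorin, a small proteoglycan of the connective tissue matrix. The rule gave 58 stromal and 27 other cells. In normalized values no cell was near the threshold, since *Dcn* was 6521 to 365531 in stromal cells and 5.17 to 269 in other cells. At least 4 of 6 further stromal markers (*Col1a1*, *Col1a2*, *Col3a1*, *Lum*, *Pdgfra*, *Gsn*) had 100 reads or more in 54 of the 58 stromal cells and in 0 of the 27 other cells. At least 3 of 7 endothelial markers (*Pecam1*, *Cdh5*, *Flt1*, *Kdr*, *Cldn5*, *Egfl7*, *Esam*) had 100 reads or more in 22 of the 27 other cells and in 1 stromal cell. *Cdh5*, which encodes the CD144 protein used to remove endothelial cells in the sort, was above 0 in 23 of the 27 other cells. *Cd36*, a fatty acid transporter gene, was above 0 in 26 other and 18 stromal cells. Markers of further cell types were rare, with the pericyte genes *Rgs5* above 0 in 3 other cells and *Cspg4* in 2 stromal cells. The adipocyte gene *Adipoq* was above 0 in 1 stromal cell, the macrophage gene *Cd68* in 2 and each of 5 mesothelial markers in 2 or 3. Many of the markers looked for had no row. Rows existed for 1 of 5 immune, 2 of 6 smooth muscle and pericyte, 1 of 4 adipocyte and 0 of 3 Schwann cell markers. Other cells had fewer genes above 0 per cell (285 to 2278, median 1416) than stromal cells (850 to 4148, median 2813). Reads per cell, recovered from the normalized values, were 1146945 to 4776510. A stromal cell with the fewest reads passed the *Dcn* rule on 69 reads and had 1 of the imprinted genes, *Ndn*, above 0. Other cells had up to 248 *Dcn* reads, so in reads the classes overlapped.

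*Meg3*, a long noncoding RNA of the *Dlk1*-*Dio3* domain on chromosome 12, was above 0 in 50 of the 85 cells (58.8%, 47.6% to 69.4%). It was above 0 in 49 of 58 stromal cells (84.5%, 72.6% to 92.7%) and in 1 of 27 other cells (3.70%, 0.0937% to 19%). In stromal cells the lowest normalized read count was 0, the median 183 and the highest 6788. In other cells all values were 0 except 1.93, which came from 2 reads. This single value was just below the lowest stromal value above 0 (2.02). The mean of log2(value + 1) was 6.34 ± 3.92 (SD over 58 cells) in stromal and 0.06 ± 0.30 (SD over 27 cells) in other cells, a difference of 6.28. Where *Meg3* was above 0 in stromal cells it had 3 to 7494 reads with a median of 299. It had at least 100 reads in 33 stromal cells and 1 to 9 reads in 8. No other cell reached 10 reads. Thinning every cell to the same 1146945 reads left *Meg3* in 46 of 58 stromal cells and 0 of 27 other cells. Among cells with 1500 to 2500 genes above 0, where the classes differed less in complexity, it was above 0 in 10 of 12 stromal and 1 of 10 other cells.

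**Figure D1:**
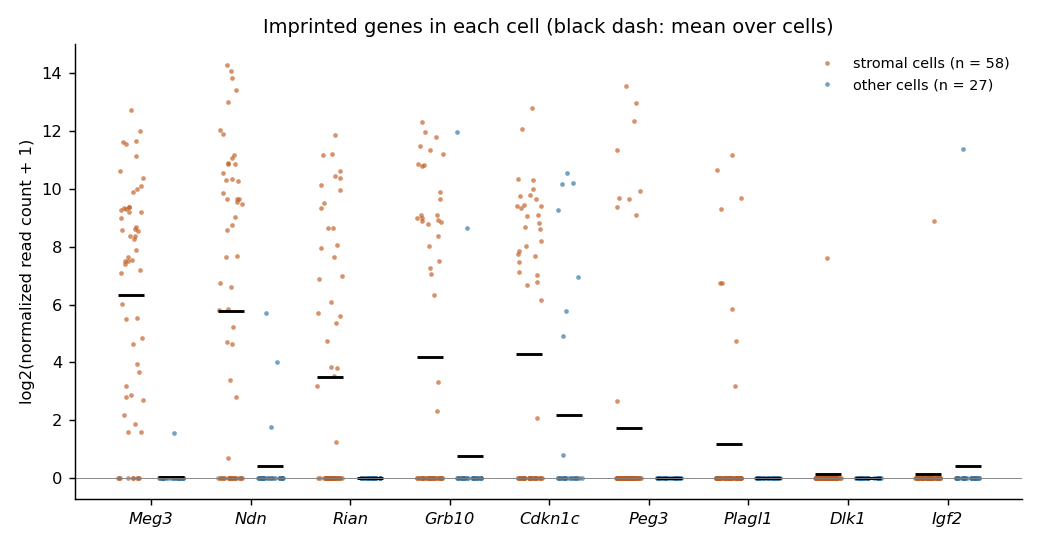
Normalized read counts as log2(value + 1) (y axis) for 9 imprinted genes (x axis, ordered by the difference of the means), with 1 point per cell, 58 stromal cells in orange and 27 other cells in blue, and a black dash at the mean. *Meg3* has 1 other cell above 0, and *Cdkn1c* has 8, several at levels like those of the stromal cells.

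The *Meg3* domain holds further noncoding genes downstream of *Meg3* on the same strand. *Rian*, which hosts small nucleolar RNAs and microRNAs, was above 0 in 27 of 58 stromal cells (46.6%, 33.3% to 60.1%) and in 0 of 27 other cells (0% to 12.8%). Its values in stromal cells were 0 to 3740 with a median of 0. Among the 27 cells with reads it had 2 to 2699 reads, median 274. The mean of log2(value + 1) in stromal cells was 3.49 ± 4.25 (SD, 58 cells). *Mirg*, the microRNA host gene downstream of *Rian*, was above 0 in 7 stromal and 0 other cells. *Dlk1*, a transmembrane protein related to Notch ligands and the paternally expressed neighbour of *Meg3*, was above 0 in a single stromal cell, with 194 reads. *Rtl1*, a gene derived from a retrotransposon that lies opposite to the maternal transcripts, had 77 reads in 1 stromal cell. Within the domain, reads of *Meg3* and *Rian* were thus found in many stromal cells, and reads assigned to the protein-coding genes *Dlk1* and *Rtl1* in 1 each. Since the library kit does not mark the strand, the 77 *Rtl1* reads cannot be told apart from reads of transcripts on the opposite strand.

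*Meg3* and *Rian* were then counted together in the 58 stromal cells. Both were above 0 in 26 stromal cells, *Meg3* alone in 23, *Rian* alone in 1 and neither in 8. Of the cells with *Rian*, 96.3% had *Meg3*, beside 84.5% of all stromal cells, and of the cells with *Meg3*, 53.1% had *Rian*, beside 46.6% of all stromal cells. Whether the genes occurred together more often than unrelated genes was not tested. With a minimum of 10 reads for both, 20 of 25 cells with *Rian* had *Meg3*, and with 100 reads 14 of 18. Levels were only loosely related (Spearman's rho = 0.35 over 58 stromal cells that share one preparation). *Mirg* was above 0 together with *Meg3* in 6 of its 7 cells and together with *Rian* in 5. The library kit does not mark the strand, and the transcripts of *Meg3*, *Rian* and *Mirg* are read in one direction next to each other, so reads from an extended *Meg3* transcript cannot be told apart from reads of its neighbours.

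**Figure D2:**
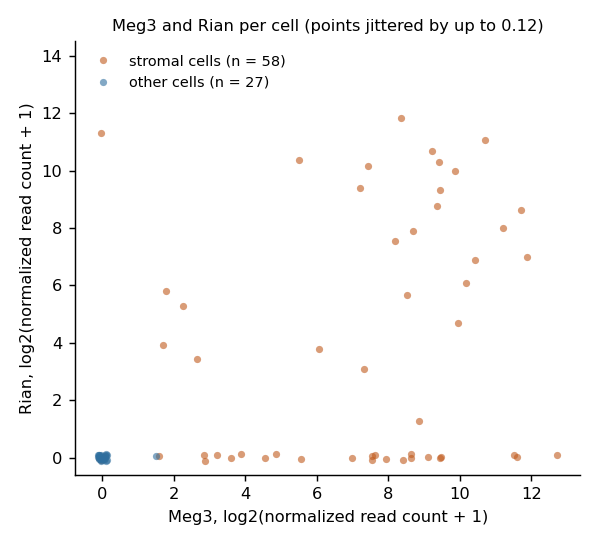
*Meg3* (x axis) against *Rian* (y axis), both as log2(normalized read count + 1), with 1 point per cell and a jitter of up to 0.12. The 27 other cells lie at or near the origin, 26 stromal cells have both genes, and 1 stromal cell has *Rian* without *Meg3*.

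Chromosome 7 carries 5 of the 10 genes, of which *Igf2* and *H19* share a domain. *Ndn*, which encodes necdin, a growth suppressor of the MAGE family, had the second widest presence in stromal cells. It was above 0 in 37 of 58 stromal cells (63.8%, 50.1% to 76%) and in 3 of 27 other cells (11.1%, 2.35% to 29.2%). Values in stromal cells were 0 to 19940 with a median of 76.5, and the 3 other cells had 10, 2 and 4 reads. The mean of log2(value + 1) was 5.77 ± 5.09 in stromal and 0.43 ± 1.35 in other cells, a difference of 5.34. At 100 reads or more, *Ndn* was found in 27 stromal cells and 0 other cells. Stromal cells thus ranged from 21 cells with no *Ndn* read to cells with up to 8721. *Snrpn*, a splicing protein gene of the same region, was above 0 in 10 stromal and 3 other cells. *Ndn* was above 0 in 7 of the 10 stromal cells with *Snrpn*.

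*Peg3*, a zinc finger protein gene, was above 0 in 10 of 58 stromal cells (17.2%, 8.59% to 29.4%) and in 0 of 27 other cells (0% to 12.8%). Its reads in those cells were 4, 214, 521, 570, 1107, 1468, 2969, 5737, 6304 and 9160. *Peg3* was therefore rare but high where present, with 9 of the 10 cells over 100 reads. *Zim1*, the maternally expressed zinc finger gene beside it, was above 0 in 5 stromal cells, of which 2 also had *Peg3*.

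*Igf2*, the insulin-like growth factor 2 gene, was nearly absent. It was above 0 in 1 of 58 stromal cells (1.72%, 0.0436% to 9.24%), with 467 reads, and in 1 of 27 other cells, with 2656 reads. That other cell was also the one with 2 *Meg3* reads, and 5 of the 7 endothelial markers had 100 reads or more in it. *Igf1*, the related growth factor, was above 0 in 48 stromal and 3 other cells.

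*Cdkn1c* encodes p57, an inhibitor of cyclin-dependent kinases. It was above 0 in 29 of 58 stromal cells (50%, 36.6% to 63.4%) and in 8 of 27 other cells (29.6%, 13.8% to 50.2%), and these intervals overlapped. In other cells its reads were 1, 30, 60, 114, 581, 1069, 1129 and 1478. Its median where above 0 was 525 reads in stromal cells and 348 in other cells. Each of the 8 other cells had at least 3 endothelial markers at 100 reads or more. The mean of log2(value + 1) was 4.30 ± 4.55 in stromal and 2.17 ± 3.84 in other cells, a difference of 2.13. Among cells with 1500 to 2500 genes it was above 0 in 5 of 12 stromal and 5 of 10 other cells, and the difference of the means was -0.02. The part of genes per cell in the *Cdkn1c* difference was not tested. *Kcnq1ot1*, the noncoding RNA that controls the domain of *Cdkn1c* and lies opposite to *Kcnq1*, was above 0 in 37 stromal and 5 other cells. Its reads were present in 19 of the 29 stromal cells with *Cdkn1c*. Without strand marks in the libraries, they cannot be told apart from reads of *Kcnq1*.

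*Grb10* and *Plagl1* lie on chromosomes 11 and 10. *Grb10*, an adaptor protein that binds the insulin and insulin-like growth factor 1 receptors, was above 0 in 27 of 58 stromal cells (46.6%, 33.3% to 60.1%) and in 2 of 27 other cells (7.41%, 0.910% to 24.3%). Its reads in stromal cells with the gene were 4 to 5069 with a median of 511. The 2 other cells had 399 and 3998 reads, inside the stromal range. The mean of log2(value + 1) was 4.2 ± 4.82 in stromal and 0.76 ± 2.79 in other cells. *Plagl1*, a zinc finger transcription factor linked to growth arrest, was above 0 in 9 of 58 stromal cells (15.5%, 7.35% to 27.4%) and in 0 of 27 other cells (0% to 12.8%). Its reads were 8, 26, 56, 107, 107, 627, 822, 1600 and 2316, and 6 of the 9 cells had at least 100.

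**Figure D3:**
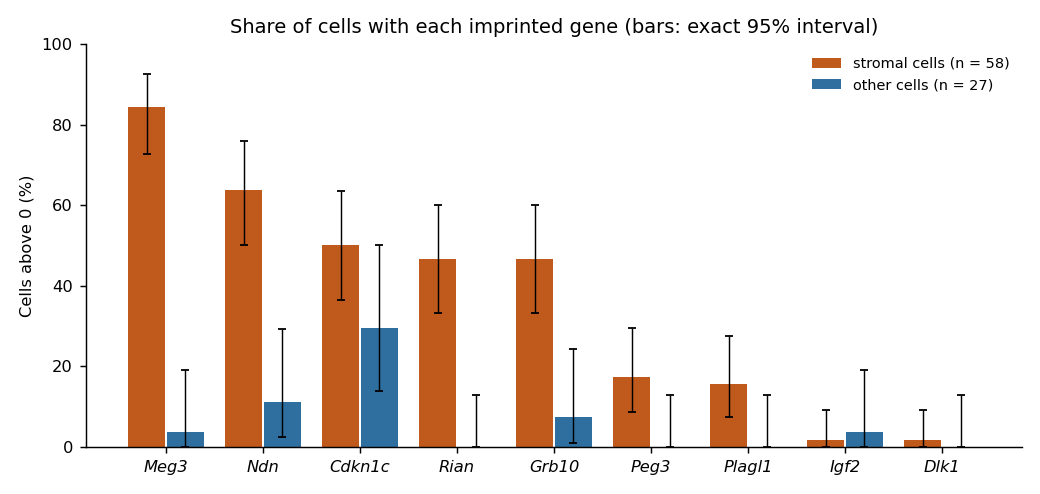
Share of cells above 0 in percent (y axis) for 9 imprinted genes (x axis) in 58 stromal (orange) and 27 other (blue) cells, with exact 95% intervals over cells as error bars. The intervals of *Meg3*, *Ndn*, *Rian* and *Grb10* are apart between the classes, and those of *Cdkn1c*, *Peg3*, *Plagl1*, *Igf2* and *Dlk1* overlap. How many of all genes have intervals apart was not counted.

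At equal depth of 1146945 reads per cell the order was similar. *Ndn* was then above 0 in 37 stromal and 2 other cells, *Cdkn1c* in 28 and 7, *Rian* in 26 and 0, and *Grb10* in 27 and 2. *Peg3* was above 0 in 10 and *Plagl1* in 9 stromal cells. Reads of stromal matrix genes were present at low counts in other cells. *Col3a1* was above 0 in 24 of 27 other cells and *Gsn* in 27, whereas at 100 reads *Col3a1* was found in 0 and *Gsn* in 2. The 2 *Meg3* reads and the 2, 4 and 10 *Ndn* reads of other cells lay below that minimum.

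Most genes were found in a larger share of stromal than of other cells. The share was higher in stromal cells for 83.5% of all 16069 genes and for 8 of the 9 imprinted genes with a row. *Igf2* was the exception. A mean of log2(value + 1) at least 1 higher in stromal cells was found for 25.4% of the 16069 genes and for 7 of the 9 imprinted genes (*Meg3*, *Ndn*, *Rian*, *Grb10*, *Cdkn1c*, *Peg3* and *Plagl1*). A mean at least 1 lower was found for 2.03% of the 16069 genes and for 0 of the 9. The median difference was 2.13 over the 9 imprinted genes, 0.32 over the 16069 genes and 0.64 over genes above 0 in 3 or more cells. *Igf2* and *Dlk1* were above 0 in fewer than 3 cells. Over the 11478 genes above 0 in 3 or more cells, which include the other 7 imprinted genes, the shares of genes were 85.1% for a higher share, 35.6% for a mean at least 1 higher and 2.84% for a mean at least 1 lower. A gene found mostly in stromal cells passes that filter through its stromal values, so the 7 that passed are not counted as support. Ranks among the 11478 genes rest on the same filter and are given as a description, with each gene itself counted. A difference of the means at least as large as that of *Meg3* was found for 127 genes, as that of *Ndn* for 226, as that of *Rian* for 682 and as that of *Grb10* for 708. With *Meg3* itself counted, 14 genes had a difference in share at least as large as that of *Meg3*, 80.8 percentage points. *Peg3* and *Plagl1* were nearer the middle, with 2292 and 3548 genes at or above their differences of the means.

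**Figure D4:**
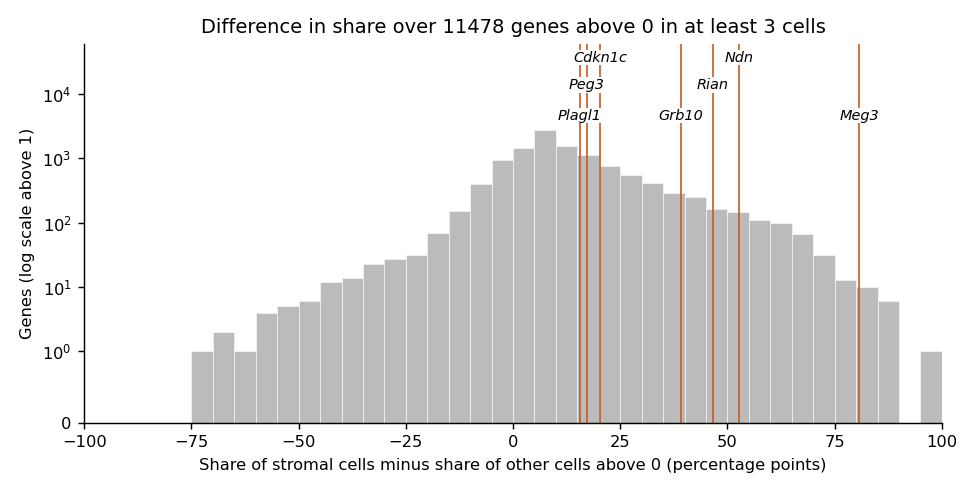
Number of genes (y axis, log scale above 1) by the share of stromal minus the share of other cells above 0 in percentage points (x axis), over 11478 genes, with orange lines at 7 imprinted genes. *Meg3* at 80.8 points lies in the far upper tail with 14 genes, itself included, at or above it, and *Peg3*, *Plagl1* and *Cdkn1c* lie near the bulk.

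Stromal cells differed in which imprinted genes had reads. Whether a value of 0 meant no transcript or a transcript missed in the library was not tested. Of the 9 genes, 1 to 6 were above 0 in a stromal cell (median 3), and 0 to 2 in an other cell (median 0). At least 3 were above 0 in 43 stromal cells and 0 other cells, and 14 other cells had none. The number rose loosely with genes per cell (Spearman's rho = 0.32 over stromal and 0.51 over other cells). *Cdkn1c* and *Grb10*, both growth restraining genes, were above 0 together in 17 stromal cells, *Ndn* and *Cdkn1c* in 19, and *Ndn* and *Grb10* in 19. Singly, *Cdkn1c* was above 0 in 29, *Grb10* in 27 and *Ndn* in 37 of the 58 stromal cells. Whether any pair occurred together more often than the single counts would give was not tested. *Peg3* and *Plagl1* shared 1 cell. Spearman's rho was -0.16 between *Ndn* and *Meg3*, and -0.31 between *Dcn* and each of *Ndn* and *Cdkn1c*, all weak values over sparse counts. With recovered reads scaled by the total of each cell, the value between *Ndn* and *Meg3* was -0.03.

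**Figure D5:**
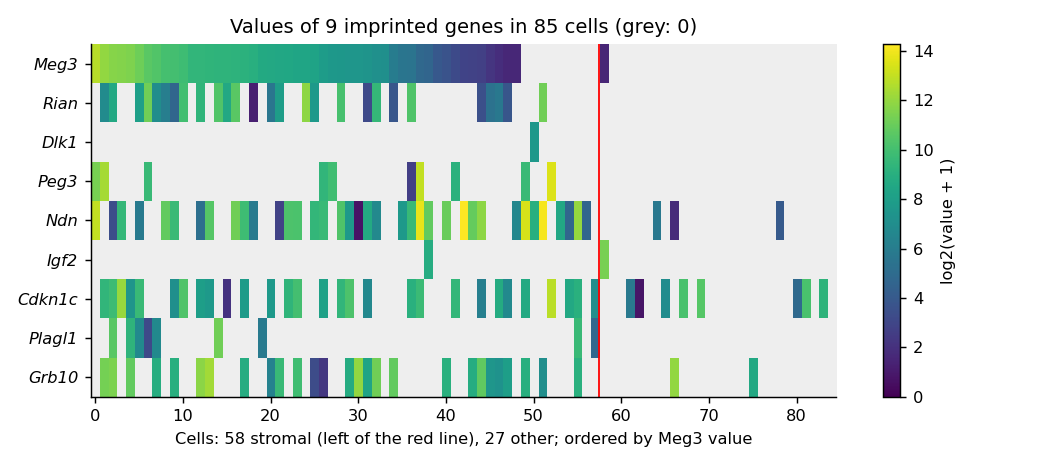
Values of 9 imprinted genes (rows) as log2(value + 1) in colour, grey at 0, over 58 stromal cells left of the red line and 27 other cells right of it (columns), each class ordered by *Meg3*. *Ndn*, *Cdkn1c* and *Grb10* are scattered over stromal cells with and without high *Meg3*.

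Levels were compared between genes only per length, as RPKM of the recovered reads (reads scaled by exon length and by the total of each cell), averaged over the 58 stromal cells. The order was *Ndn* (119 ± 195, SD over cells), *Cdkn1c* (75.9 ± 205), *Grb10* (20.8 ± 39.4), *Peg3* (13.3 ± 47), *Meg3* (12.8 ± 24.3), *Rian* (5.59 ± 11), *Plagl1* (4.32 ± 16.4), *Igf2* (0.41 ± 3.09) and *Dlk1* (0.21 ± 1.63). Each pair of neighbours in this order differed by less than the larger SD of the pair. *Meg3* was thus the most widely found of the genes but only the fifth by mean level per length. Its annotated exons add up to 18089 bases, and which of its transcripts were read was not analysed. Over only the stromal cells above 0, the median was 6.56 for *Meg3*, 7.16 for *Plagl1* and 5.16 for *Rian*. *Igf2* and *Dlk1*, each from 1 cell, had 23.5 and 12.4. By that median the order of the genes differed, with *Meg3* below *Plagl1*. *Ndn*, with 3694 bases, combined a wide presence with the highest level.

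For each of the 6 genes above 0 in at least 10 stromal cells, the genes with the most similar pattern were ranked by Spearman's rho of log2(value + 1) over the 58 stromal cells, among 1664 genes. *Meg3* was most like *Arl1* (0.53), a small GTPase of the Golgi, *Vim* (0.44), the mesenchymal intermediate filament vimentin, and *Gnas* (0.41), the imprinted gene of the stimulatory G protein alpha subunit. *Cdkn1c* was most like *Pi16* (0.52), a marker of adventitial fibroblasts, *Adgrd1* (0.45), an adhesion G protein-coupled receptor, and *Ebf2* (0.44), a transcription factor of adipocyte precursors. *Grb10* was most like *Zeb2* (0.46), a mesenchymal transcription factor, *Lamb1* (0.45), a laminin chain, and *Gm13192* (0.44). *Peg3* was most like *Hnrnpu* (0.49), *Ltbp1* (0.44), which binds latent TGF-β, and *Gm10059* (0.39). *Rian* was most like *Set* (0.44), *Rrbp1* (0.39) and *Gm6394* (0.38). *Ndn* was most like *Rpl39-ps* (0.45), *Gm43028* (0.44) and *Gng10* (0.41). With recovered reads scaled by the total of each cell in place of the normalized values, the 3 values of *Ndn* were 0.35, 0.34 and 0.48. The order among the 3 thus depended on the scaling. Values of the other genes were then 0.32 to 0.54. These are the highest of many sparse correlations in 1 sample and are given as a description.

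Of 49 other imprinted genes, 32 had a row, and all 32 had a higher share in stromal cells, beside 83.5% of the 16069 genes. A mean at least 1 higher was found for 12 of the 32 (37.5%), beside 25.4% of the 16069 genes, and a mean at least 1 lower for 0, beside 2.03%. Among the 32, 6 were above 0 in fewer than 3 cells. Their median difference was 0.82, beside 0.32 over the 16069 genes. Over all genes above 0 in 3 or more cells, the shares were 85.1%, 35.6% and 2.84%, and the median difference was 0.64. On that set the list had 26 genes, of which all 26 had a higher share and 12 a mean at least 1 higher. Genes found mostly in stromal cells pass this filter through their stromal values, so these counts are not counted as support. *Gnas* was above 0 in 51 stromal and 18 other cells, with a mean of log2(value + 1) of 9.28 ± 4.0 and 5.68 ± 5.42. *Cd81*, a tetraspanin, was above 0 in 45 and 18 cells. *Sgce*, which encodes epsilon-sarcoglycan, was above 0 in 41 and 2 cells, with means of 6.68 ± 4.69 and 0.20 ± 0.76, a difference of 6.49 beside 6.28 for *Meg3*. *Ube3a*, a ubiquitin ligase, was above 0 in 27 and 2 cells. *Igf2r*, which encodes a receptor that clears IGF2, was above 0 in 22 and 2 cells.

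Genes that maintain imprints were also counted. Of 8 listed, 6 had a row, and 2 of the 6 (33.3%) had a mean at least 1 higher in stromal cells, beside 25.4% of the 16069 genes and 35.6% of those above 0 in 3 or more cells, a minimum that all 6 met. *Ctcf*, the insulator protein gene, was above 0 in 17 stromal and 1 other cells, *Trim28*, a corepressor gene, in 15 and 4, and *Smchd1* in 17 and 6. *Dnmt1*, the maintenance DNA methyltransferase gene, was above 0 in 7 and 1 cells. Of 19 genes listed as partners of the imprinted genes, 18 had a row. A mean at least 1 higher was found for 7 of the 18 (38.9%), beside 25.4% of the 16069 genes, and at least 1 lower for 2 (11.1%), beside 2.03%. Of the 18, 16 were above 0 in 3 or more cells, where the shares of genes were 35.6% and 2.84%. The 7 higher and the 2 lower genes were all among these 16. *Igf1r*, the receptor to which *Grb10* binds, was above 0 in 25 stromal and 4 other cells. *Ccnd2*, a D-type cyclin, was above 0 in 33 and 7, and *Cdk4* in 20 and 4. The 2 lower genes were *Notch4*, with 1 stromal and 4 other cells, and *Cdkn1a*. *Cdkn1a* encodes p21, a relative of *Cdkn1c*, and was above 0 in 31 stromal and 17 other cells, with means of 4.81 ± 4.94 and 7.32 ± 5.89. Of 7 proliferation genes 3 had a row, with *Pcna* above 0 in 7 stromal and 2 other cells, *Birc5* in 1 stromal cell and *Mki67* in 1 other cell.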

How the data were processed

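Single cells were profiled as described above, and the authors deposited normalized read counts (a signal that is not whole for many genes). According to the study's methods, HISAT2 (version 2.0.5) aligned the reads to mm9 after a FastQC check, SAMtools (version 1.4) sorted them, StringTie (version 1.3.3) was used for assembly, cells with over 800000 aligned reads were kept, and scater scaled the counts. The counting program is not given in the sources used here. Among the deposited values, 5404 genes fell into 13 groups, each with its own factor per cell, and the rest were whole. *Grb10*, *Plagl1*, *Igf2* and *Dlk1* were whole, and the other 5 imprinted genes were scaled. Whole reads were recovered by dividing out each factor, a method devised after the values were seen. 0 values were left not whole, at a relative tolerance of 6e-09, which is partly built in because the factors were chosen to leave whole values. In a simulation, 100% of reads on all 16069 genes were recovered. Its factors spanned a narrower range than those of the data (0.0157 to 94.5), so the most extreme factors were not covered. In 20 of 1105 pairs of cell and group, fewer than 10 values set the factor. The recovered reads set depth and read minimums. PCR duplicates carry no molecular identifiers. Doublets were not called, and 1 stromal cell had markers of both classes.

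Values were compared as log2(value + 1) and as shares above 0, with no test. Counts over lists were set beside all genes, and beside genes above 0 in at least 3 cells. All 10 genes, the 5 genes of each list with the most cells, up to 3 lower genes a list and the 3 most similar genes of each member could be named. *Mirg*, *Rtl1*, *Zim1*, *Snrpn* and *Igf2r* were named outside that rule, after their values were seen, for their position or role, and both promoter motifs were picked after the windows were seen. The genes and lists were chosen with earlier results of these data known. Python 3.11.15, pandas 2.3.3, numpy 2.4.6 and scipy 1.17.1 were used. Sequences and exon lengths came from RefSeq and GENCODE on GRCm38, another build than that of the reads, so no coordinates of measured reads are given.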

Additional observations from a re-analysis of the deposited data

How the results depend on the processing

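The recount used 232 alternative values, of which 216 stayed within the spread (for counts, within 1.5 times), 14 moved further and 2 changed direction. Both were of *Cdkn1c* between cells with 1500 to 2500 genes, where the difference of the means was -0.018 and the difference in share -8.33 percentage points, and the cause was not tested. Differences of single genes other than *Meg3* were added to the recount after seeing the data. Staying within the spread was a loose limit for the differences of the means. Except for *Meg3* and *Ndn*, the SD over stromal cells was larger than the difference itself. Changing only the background genes could not alter the counts of imprinted genes. The 216 values within the limit are therefore not counted as support. A minimum of 10 reads gave *Meg3* in 70.7% of stromal and 0% of other cells, and one of 100 reads in 56.9% and 0%. Thinning to equal depth also gave 0% in other cells. Over all cells, 100 reads left *Meg3* in 38.8%, *Rian* in 21.2% and *Ndn* in 31.8%, and *Meg3* with *Rian* in 14 stromal cells. Between cells with 1500 to 2500 genes, 1 imprinted gene, *Igf2*, had a mean at least 1 lower in stromal cells, beside 22.1% of genes, and 6 of 9 had a higher share, beside 60.7%. Across all alternatives 6 to 8 had a higher share, beside 60.7% to 91.3% of genes, and 6 or 7 a mean at least 1 higher, beside 20.5% to 60.3%. A *Dcn* value above 0 could not serve as a class rule, since all 85 cells had one. Leaving out the cell with the fewest reads gave *Meg3* in 86% of stromal cells. Using the longest transcript for length gave the same order of mean levels, and shorter transcripts were not tried. Both settings were chosen after seeing the data. The smaller shares at read minimums follow from counting fewer cells. No paired analysis was possible because all cells form 1 group. At 0 of 27 cells the exact interval reaches 12.8% (3 of 27 cells, a rule of thumb for a count of 0, would be 11.1%), and at 1 of 27 it reaches 19%.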
